A study of Arabidopsis thaliana with 22 samples.

Results

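The 222 regions described here are stretches of pericentromeric chromatin in Arabidopsis thaliana at which RNA polymerase IV (Pol IV) gave a ChIP-seq peak in both wild-type (WT) libraries and in neither zmp-2 library. Overlapping peaks of the WT NRPD1-HA replicates (1 base or more in common) were joined into 7928 regions. Of these, 5223 held a peak of both replicates and touched no peak of the control without a transgene (set A), and are called WT Pol IV sites. Among them, 1423 had their midpoint inside 5 fixed pericentromeric windows of 17.2 Mb in all. Sites that touched no zmp-2 NRPD1-HA peak are called lost (222), sites that touched a peak of 1 zmp-2 list partly lost (297), and sites that touched peaks of both zmp-2 lists kept (904). The lost regions were thus chosen by the presence of WT NRPD1-HA peaks, the absence of zmp-2 NRPD1-HA peaks and their position. A lost region is one without a called peak, which does not measure how much Pol IV remained there.

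The study asked where Pol IV and its partner protein ZMP (zinc finger, MDM2/SWIB and Plus-3 domains) occupy chromatin in inflorescences, and where Pol IV occupancy changes without ZMP. All plants were of the Col-0 ecotype. Chromatin came from zmp-2 plants, which carry a T-DNA insertion in ZMP, with the transgene pNRPD1::NRPD1-HA (2 biological replicates), and from WT plants with the same transgene (2 replicates), in which the HA-tagged largest Pol IV subunit is driven by its own promoter. ZMP was mapped in WT plants carrying pZMP::ZMP-HA (2 replicates), likewise under its own promoter. WT plants without a transgene served as controls, in set A beside the NRPD1-HA libraries and in set B beside the ZMP-HA libraries (2 replicates each), and trimethylated lysine 4 of histone H3 (H3K4me3) was mapped in 1 WT library. The methods name 1 transgenic line for each tag, so the lines themselves are not replicated. The labels give no antibody for set A and anti-HA for set B.

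Pol IV is a plant-specific relative of RNA polymerase II that transcribes transposons and other repeats. Its short transcripts are made double-stranded by RDR2 and cut by DCL3 into small interfering RNAs, which guide the methyltransferase DRM2 to cytosines of matching sequence in the pathway called RNA-directed DNA methylation. Pericentromeres are the transposon-rich, gene-poor flanks of the centromeres, and H3K4me3 marks the 5′ ends of transcribed genes.

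The sequences of 7 lost regions are shown first, because lost regions with and without ZMP-HA peaks differed in median base composition and CG content, with overlapping ranges. Each is 300 bases of the plus strand around the highest point of the WT replicate 2 peak, from the RefSeq TAIR10.1 assembly, and the capitals mark CG dinucleotides, the main sites of methylation in plant DNA. The first 4 come from the lost regions with ZMP-HA peaks that ranked highest by fold enrichment in both WT lists.
Lost with ZMP, chr4:3322568-3322867: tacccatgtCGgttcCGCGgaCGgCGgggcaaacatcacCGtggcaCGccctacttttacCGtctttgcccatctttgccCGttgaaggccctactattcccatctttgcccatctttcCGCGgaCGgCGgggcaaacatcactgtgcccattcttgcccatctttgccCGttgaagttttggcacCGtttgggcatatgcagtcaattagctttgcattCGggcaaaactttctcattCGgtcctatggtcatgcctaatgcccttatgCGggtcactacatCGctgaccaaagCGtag
Lost with ZMP, chr3:13167228-13167527: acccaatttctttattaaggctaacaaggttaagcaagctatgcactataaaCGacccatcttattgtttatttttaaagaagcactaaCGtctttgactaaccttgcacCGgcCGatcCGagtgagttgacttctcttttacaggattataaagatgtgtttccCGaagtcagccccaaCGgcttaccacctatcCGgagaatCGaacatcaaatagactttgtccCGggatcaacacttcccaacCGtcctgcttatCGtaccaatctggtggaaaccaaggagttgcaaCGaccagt
Lost with ZMP, chr5:11646058-11646357: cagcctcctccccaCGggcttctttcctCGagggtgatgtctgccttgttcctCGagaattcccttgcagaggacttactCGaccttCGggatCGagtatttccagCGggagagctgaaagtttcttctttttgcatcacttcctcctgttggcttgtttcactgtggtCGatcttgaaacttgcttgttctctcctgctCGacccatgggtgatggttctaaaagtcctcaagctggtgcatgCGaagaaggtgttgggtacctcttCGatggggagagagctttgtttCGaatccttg
Lost with ZMP, chr3:12951050-12951349: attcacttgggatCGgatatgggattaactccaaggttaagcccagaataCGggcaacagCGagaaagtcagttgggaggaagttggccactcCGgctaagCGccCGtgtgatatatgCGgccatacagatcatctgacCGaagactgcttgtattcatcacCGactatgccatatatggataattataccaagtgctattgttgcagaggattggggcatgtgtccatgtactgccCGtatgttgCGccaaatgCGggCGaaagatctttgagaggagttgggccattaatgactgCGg
The next 3 come from the highest-ranked lost regions without a ZMP-HA peak.
Lost without ZMP, chr5:13516173-13516472: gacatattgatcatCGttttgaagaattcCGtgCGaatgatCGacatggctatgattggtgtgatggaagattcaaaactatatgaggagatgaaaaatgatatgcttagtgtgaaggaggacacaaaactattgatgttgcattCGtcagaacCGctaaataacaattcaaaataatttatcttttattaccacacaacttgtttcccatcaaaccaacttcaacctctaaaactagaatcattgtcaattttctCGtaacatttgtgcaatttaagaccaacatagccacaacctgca
Lost without ZMP, chr5:13060227-13060526: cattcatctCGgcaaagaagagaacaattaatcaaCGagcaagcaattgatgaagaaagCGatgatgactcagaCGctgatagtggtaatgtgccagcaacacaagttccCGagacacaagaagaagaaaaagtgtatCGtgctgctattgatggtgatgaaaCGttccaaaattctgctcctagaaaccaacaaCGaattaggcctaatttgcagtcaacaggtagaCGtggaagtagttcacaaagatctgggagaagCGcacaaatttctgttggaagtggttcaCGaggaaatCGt
Lost without ZMP, chr5:10385095-10385394: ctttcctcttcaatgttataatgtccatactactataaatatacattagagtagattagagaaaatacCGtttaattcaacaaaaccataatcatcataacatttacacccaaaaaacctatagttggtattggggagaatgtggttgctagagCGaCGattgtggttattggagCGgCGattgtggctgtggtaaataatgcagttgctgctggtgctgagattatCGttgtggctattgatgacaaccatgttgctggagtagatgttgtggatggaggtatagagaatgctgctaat
The 4 stretches with ZMP-HA peaks held 20, 13, 12 and 14 CG dinucleotides and 53.7%, 43.7%, 51.0% and 49.0% G+C, against 7, 12 and 6 CG dinucleotides and 35.0%, 42.7% and 38.3% G+C in the 3 without. Over all regions of each kind, the same 300-base window held a median of 13 CG dinucleotides in the 141 lost regions with ZMP-HA peaks and 9 in the 40 lost regions without. The median was 12 over all 222 lost regions and 9 over the 904 kept regions.

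In the windows, the zmp-2 replicate 1 list was the smallest of the NRPD1-HA lists. On the 5 chromosomes there were 7012 and 8655 NRPD1-HA peaks in zmp-2 replicates 1 and 2 (1836 and 2434 in the windows), against 7250 and 7518 in WT replicates 1 and 2 (2468 and 2412 in the windows). These peaks covered 12.2% and 21.6% of the window bases in zmp-2 replicates 1 and 2, against 22.8% and 28.2% in WT replicates 1 and 2, and the part of this difference in the loss of peaks was not tested. Fold enrichment is the fragment pileup at a peak's summit over the local background, and the background implied by the peaks' fold enrichments and p-values was 26.6 and 38.7 fragments per base in zmp-2 replicates 1 and 2 and 25.02 and 41.001 in WT replicates 1 and 2. The ZMP-HA lists held 3664 and 3352 peaks in the windows, and 13.93% of the window bases lay under peaks of both lists at once. H3K4me3 peaks lay within 500 bases of the 5′ ends of 7 of 10 floral identity genes (AP1, AP2, PI, AG, SEP1, SEP2 and SEP3, but not AP3, LFY or UFO) and of 15 of 17 genes of RNA-directed DNA methylation, beside 55.4% of all 27432 protein-coding genes. RefSeq annotates 909 protein-coding genes and 2714 pseudogenes or transposon genes in the windows.

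Lost regions made up 15.6% of the WT Pol IV sites in the windows, against 6.11% of all WT Pol IV sites, and another 97 lost sites lay outside the windows. They were weak sites in WT, as the plot of fold enrichment in the WT replicates shows. Their median fold enrichment, taken at the highest peak of each region, was 2.31 in WT replicate 1 and 1.97 in replicate 2, against 4.07 and 3.25 at kept regions. Their median rank in each list was low as well, at the level of percentile 18.7 and 18.2 of all peaks of WT replicates 1 and 2, against 55.3 and 53.2 for kept regions. Lost regions were also narrower, with a median width of 1118.5 bases against 1844 bases.

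**Figure D1:**
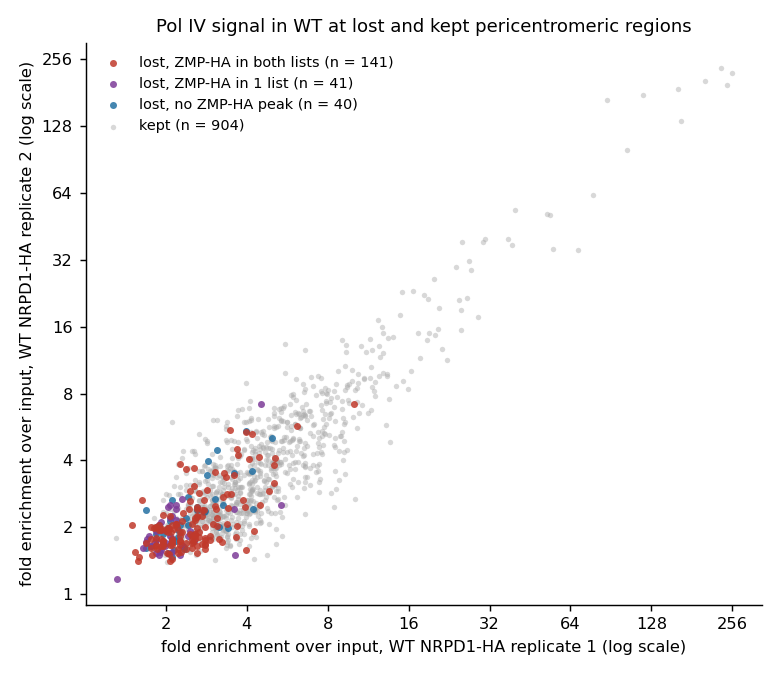
Fold enrichment over input in WT NRPD1-HA replicate 1 (horizontal axis) and replicate 2 (vertical axis), both on log scales, for 222 lost and 904 kept pericentromeric regions, 1 point each. Lost regions, coloured by their ZMP-HA peaks, lie at the low end of the kept ones, and the strongest region reached 10.04 and 7.16.

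The share of sites that were lost followed this strength. Among WT Pol IV sites ordered by WT replicate 1 fold enrichment and cut into 3 classes, 31.2% were lost in the weakest class, 11.9% in the middle class and 3.16% in the strongest. By replicate 2 the shares were 30.4%, 12.0% and 4.42%. The lowest fold enrichment called at the usual background was nearly the same in both genotypes, 1.59 and 1.46 in zmp-2 replicates 1 and 2 and 1.58 and 1.43 in WT replicates 1 and 2. The 5th percentile of the zmp-2 peaks called at that usual background (1.88 and 1.73) was exceeded by 145 of 222 lost and 866 of 904 kept regions. Over all zmp-2 peaks in the windows the 5th percentile was lower, 1.67 and 1.56 in replicates 1 and 2. The median zmp-2 peak in the windows (2.39 and 2.29) was exceeded by 57 of 222 lost and 654 of 904 kept regions. These counts use the values that chose the regions and are a description. They place most lost regions below the median zmp-2 peak in at least 1 replicate. Across lost regions the WT replicates correlated with Pearson's r = 0.68 on log2 fold enrichment and Spearman's rho = 0.55 (n = 222 regions, which share their 2 libraries), against 0.89 and 0.77 across kept regions (n = 904). The ranges were unlike, reaching 10.04 in WT replicate 1 at lost regions and 254 at kept regions. A narrow range lowers a correlation, so these values are not directly comparable.

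At the limits of the rule the classes adjoined each other. The lost region nearest to a zmp-2 peak, chr4:3784581-3786702, lay 19 bases from it and had a fold enrichment of 2.19 and 2.07 in the WT replicates. The site with the least zmp-2 overlap that was not lost, chr2:5469323-5471118, shared 8 bases with a peak of 1 list and had 2.58 and 1.81. The weakest WT peak of any lost region had a −log10 q-value of 1.46 (chr4:3551199-3551825). At the window edges, the lost region nearest to an edge was chr4:5595533-5596507 (1.84 and 2.00), and chr2:6110781-6111472, lost as well with 2.08 and 1.62, fell just outside. A zmp-2 peak lay within 1 kb of 65 of 222 lost regions and within 5 kb of 144 of 222, at a median distance of 2805 bases. Such peaks were sparser than around kept regions. At 5 kb to either side of the midpoint, peaks of either zmp-2 list covered 15.8% and 15.3% of lost regions. For kept regions these shares were 34.0% and 32.9%, and zmp-2 replicate 2 peaks alone covered 21.6% of all window bases.

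Over the 5 windows together, lost regions lay nearer the window centre than kept ones. Their median distance from the window centre was 0.76 Mb, against 1.22 Mb for kept regions. Of WT Pol IV sites within 0.5 Mb of a centre, 28.8% were lost (75 of 260, 95% exact binomial interval 23.4 to 34.8%), and the share fell with distance to 20.4% (78 of 382), 11.2% (45 of 402), 7.54% (23 of 305) and 1.35% (1 of 74) in successive steps of 0.5 Mb. The windows reach from 1.15 Mb (chromosome 2) to 2.3 Mb (chromosome 3) from their centres, so the outer steps hold only some chromosomes, and sites beyond 2 Mb come from chromosome 3 alone. When each window was split midway between centre and edge, the lost share of sites was 27.1% in the inner and 5.76% in the outer part on chromosome 1, 32.5% and 10% on chromosome 3, 25.8% and 8.47% on chromosome 4, and 25.3% and 9.86% on chromosome 5. On chromosome 2 the shares were close, at 15.6% and 14.8%. The windows themselves are part of the rule, so these shares are given as a description. Chromosome 3 held 82 lost regions, the most of any window, and chromosomes 1, 2, 4 and 5 held 34, 31, 33 and 42. The lost share of sites ranged from 12.3% on chromosome 1 to 18.7% on chromosome 3.

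**Figure D2:**
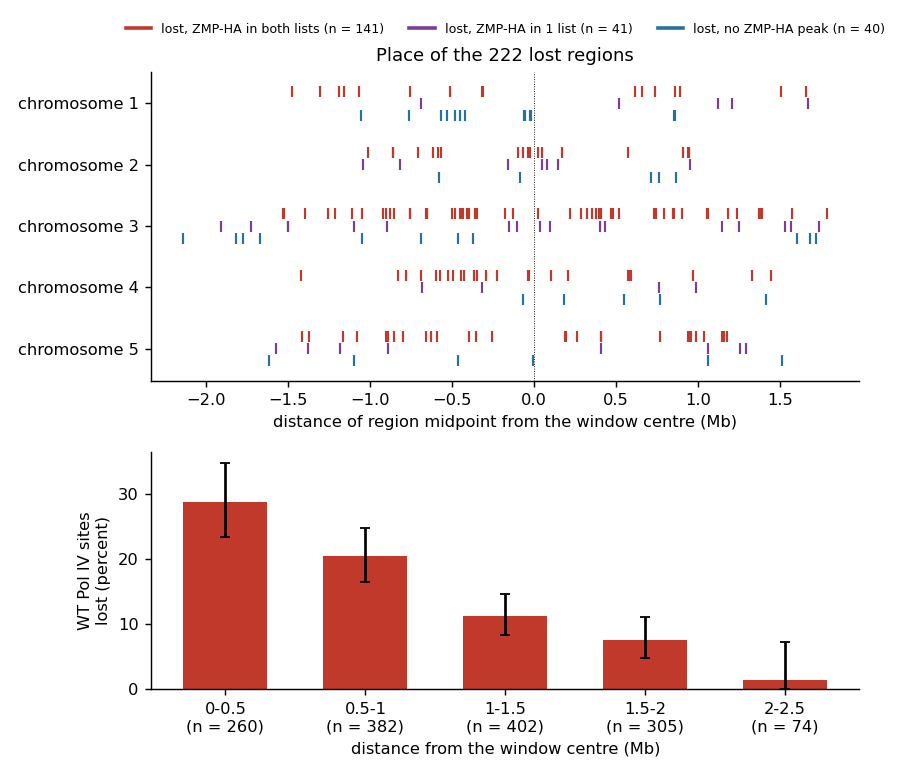
Upper panel, midpoint of each lost region as its distance from the window centre (Mb) on each chromosome, coloured by ZMP-HA peaks. Lower panel, percent of WT Pol IV sites lost in zmp-2 by distance from the window centre (Mb), with 95% exact binomial intervals. The share is 28.8% within 0.5 Mb and 1.35% beyond 2 Mb, where all sites are on chromosome 3.

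Many lost regions lay next to each other with no kept or partly lost site between them. A total of 103 stood alone, and the others formed 31 runs of 2, 10 runs of 3, 4 runs of 4, 1 run of 5 (chr5:11094365-11202709) and 1 run of 6 that spanned 75870 bases (chr3:13098027-13173896). The run of 6 ended in one of the strongest and widest lost regions, chr3:13159258-13173896. These run counts have no reference beside them, and 28.8% of sites within 0.5 Mb of a centre were lost. Whether lost regions adjoined more often than such local shares give was not tested. Neighbouring regions can be parts of 1 transposon or of 1 broad Pol IV domain, and regions of like sequence recur in both classes. At 80% identity or more over at least 300 bases, 93 of 222 lost regions (41.9%) matched another lost region. A kept region was matched by 133 lost regions (59.9%), and 569 of 904 kept regions (62.9%) matched another kept one. Any other site in the windows was matched by 64.4% of lost and 65.9% of kept regions, so recurrence was not particular to lost regions. The tests below count regions, so their p-values describe this set of regions in these libraries and not the spread between plants.

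ZMP-HA peaks lay on similar shares of lost and kept regions. Peaks of both ZMP-HA lists touched 141 of 222 lost regions (63.5%, 95% exact binomial interval 56.8 to 69.9%) and 575 of 904 kept regions (63.6%, 60.4 to 66.7%), beside 60.9% of all WT Pol IV sites in the windows and 49.6% of all WT Pol IV sites. The odds ratio was 0.996, and its 95% interval of 0.727 to 1.37 leaves room for a difference either way (two-sided Fisher's exact test, p = 1, Benjamini-Hochberg adjusted p = 1 over 6 tests). A further 41 lost regions had a peak of 1 ZMP-HA list, in 37 cases that of replicate 1, and 40 had none. This result depended on width and strength. Within 3 classes of width the pooled odds ratio was 1.58 (1.14 to 2.201, Mantel-Haenszel, n = 222 lost and 904 kept regions, adjusted p = 0.0111), and within 3 classes of WT replicate 1 fold enrichment it was 1.48 (1.04 to 2.11, adjusted p = 0.0415). In the narrowest class, 54.7% of lost and 35.0% of kept regions had ZMP-HA peaks in both lists, whereas in the widest class the shares were 90.9% and 87.1%. In a short fixed window around the WT replicate 1 summit the Fisher's exact test gave an odds ratio of 1.11 (adjusted p = 0.5). Single libraries also decided the value, since by the same exact test the odds ratio was 0.528 (adjusted p = 4.3e-09) without WT replicate 1 in the rule and 0.681 (adjusted p = 0.000899) without zmp-2 replicate 2.

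The highest ZMP-HA peak of a region was slightly lower at lost than at kept regions. Where a peak was present, the median fold enrichment of that highest peak was 2.41 in replicate 1 and 2.10 in replicate 2 at lost regions, against 2.62 and 2.32 at kept regions. Kept regions were wider and could hold more peaks, and this difference was not tested at like width. The midpoint lay under ZMP-HA peaks of both lists in 82 of all 222 lost regions (36.9%) and 297 of all 904 kept regions (32.9%). Among the 141 lost regions picked for their ZMP-HA peaks the share was 58.2%, which that choice raises. In 98 of these 141 regions (69.5%) the summit of WT replicate 2 lay inside ZMP-HA peaks of both lists, against 355 of 575 kept regions with ZMP-HA peaks (61.7%). The height of the ZMP-HA peak did not follow that of the Pol IV peak across the 141 regions (WT replicate 2 against ZMP-HA replicate 1, r = −0.01 and rho = −0.02), and the 2 ZMP-HA replicates themselves correlated with r = 0.22 and rho = 0.23.

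**Figure D3:**
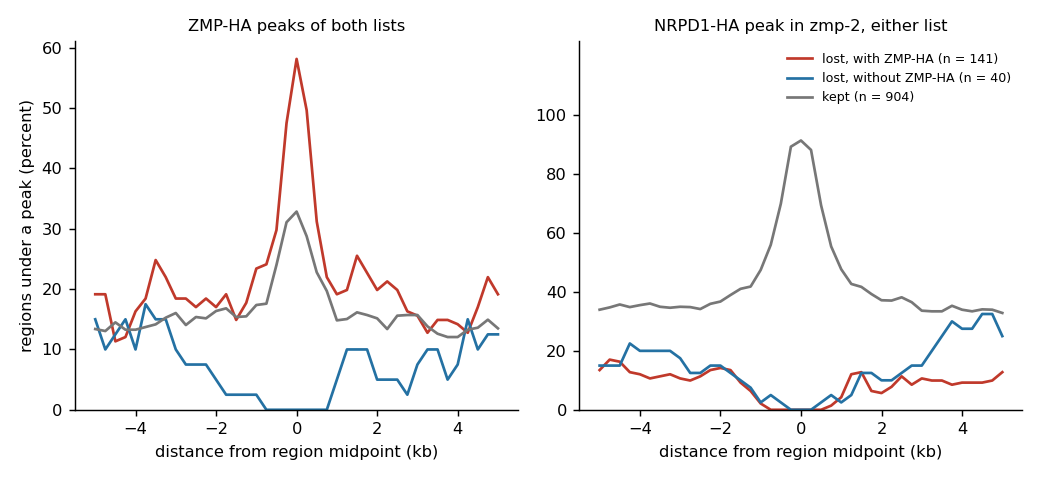
Percent of regions under a peak at points up to 5 kb from the region midpoint (kb), for lost regions with ZMP-HA peaks in both lists, lost regions without a ZMP-HA peak, and kept regions. Left, ZMP-HA peaks of both lists, which cover 58.2% of midpoints in the first group, a group picked for these peaks. Right, NRPD1-HA peaks of either zmp-2 list, whose absence at lost and presence at kept regions (91.4% of midpoints) is set by the definition of the classes, so that only the flanks are free to vary.

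H3K4me3 was scarce around lost regions. A peak lay on or within 1 kb of 34 of 222 lost regions (15.3%, 10.8 to 20.7%), against 318 of 904 kept regions (35.2%, 32.1 to 38.4%), beside 28.3% of all WT Pol IV sites in the windows and 39.5% of all WT Pol IV sites. By Fisher's exact test (two-sided) this was an odds ratio of 0.334, with an interval of 0.219 to 0.497 and an adjusted p of 1.55e-08. The median distance to the nearest H3K4me3 peak was 7876 bases at lost regions and 2669.5 bases at kept regions. The difference was smaller among sites of like strength, with an odds ratio of 0.545 (0.353 to 0.843, n = 222 and 904 regions, adjusted p = 0.016) within 3 classes of WT replicate 1 fold enrichment. Within 3 classes of distance from the window centre it was 0.292 (n = 222 and 904 regions, adjusted p = 9.09e-09), a value added once the others were known. H3K4me3 rests on 1 WT library, whose background was 5.37 fragments per base, so it has no replicate check and does not show H3K4me3 in zmp-2.

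Most lost regions lay on annotated pseudogenes, a class that holds many transposon remnants. A pseudogene or a gene whose description names a transposon overlapped 161 of 222 lost regions (72.5%, 66.1 to 78.3%), against 491 of 904 kept regions (54.3%, 51.0 to 57.6%), beside 58.7% of WT Pol IV sites in the windows and 32.4% of all WT Pol IV sites. Fisher's exact test (two-sided) gave an odds ratio of 2.22, with an interval of 1.59 to 3.12 and an adjusted p of 2.12e-06. The difference was larger at like width, with an odds ratio of 3.87 (2.705 to 5.53, n = 222 and 904 regions, adjusted p = 4.6e-14) within 3 width classes. In the narrowest class 64.2% of lost and 24.0% of kept regions overlapped such a gene. A total of 179 of the 2714 pseudogenes or transposon genes in the windows touched a lost region.

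Protein-coding genes were touched by few lost regions, 25 of 222 (11.26%, 7.42 to 16.2%) against 165 of 904 kept regions (18.3%, 15.8 to 20.9%), beside 15.6% of sites in the windows and 29.4% of all sites. The same exact test gave an odds ratio of 0.569 (0.347 to 0.899, adjusted p = 0.0184), and this call did not hold among sites of like strength (odds ratio 0.925, adjusted p = 1), of like width (0.636, adjusted p = 0.0924) or at like distance from the centre (0.68, adjusted p = 0.192). The 25 regions touched 29 of the 909 protein-coding genes in the windows, all in coding sequence, and 1 of the 29 had an H3K4me3 peak within 500 bases of its 5′ end (AT3G43340, a pseudouridine synthase family protein), against 49 of the 202 protein-coding genes on kept regions (24.3%) and beside 32.5% of the 909 in the windows. No test was run on these gene counts.

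**Figure D4:**
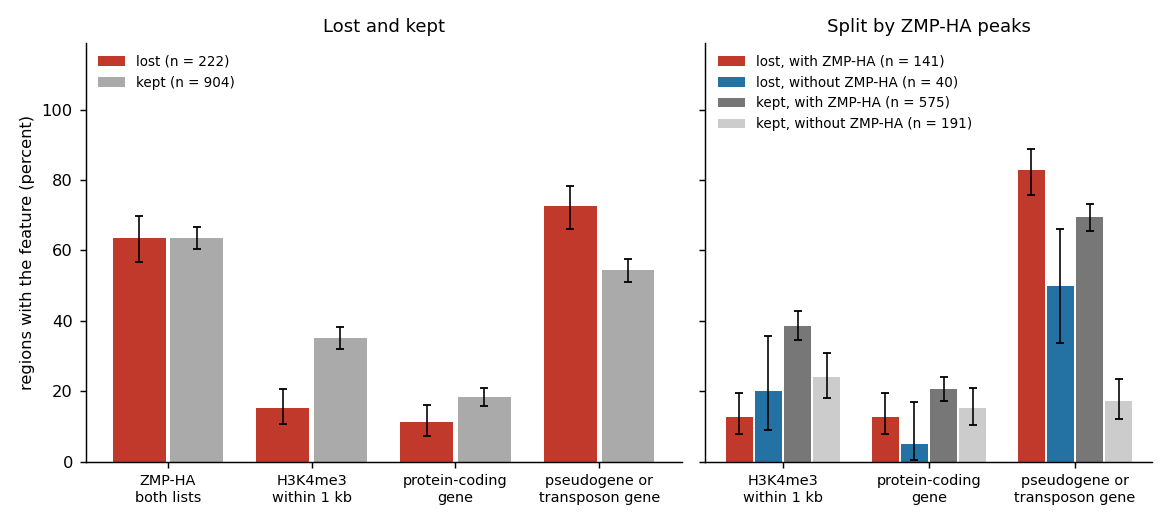
Percent of regions with each feature, with 95% exact binomial intervals. Left, 222 lost and 904 kept regions. Right, the same regions split into those with ZMP-HA peaks in both lists and those with none. ZMP-HA peaks lie on 63.5% of lost and 63.6% of kept regions, H3K4me3 is less common at lost regions (15.3% and 35.2%) and pseudogenes or transposon genes more common (72.5% and 54.3%).

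Some of these 29 genes have names of transposon proteins. Among them were AT1G42190, a GAG/POL/ENV polyprotein of the kind retrotransposons encode, AT3G30200, annotated as a transposase of the Ptta/En/Spm family, and the zinc knuckle proteins AT4G05360 and AT5G32613, whose CCHC motif occurs in retrotransposon gag proteins. AT3G32150, AT3G32190, AT3G32200 and AT4G06688 were annotated as myosin heavy chain-like, the first 3 of them within the run of 6 lost regions. MEE38 (AT3G43160, maternal effect embryo arrest 38) was the one gene with a symbol. Its lost region, chr3:15166135-15168295, had the lowest fold enrichment of all lost regions in both WT replicates, 1.32 and 1.17. The local background there was 11.6 and 8.40 times the usual one, the highest of any lost region. Of 20 genes of RNA-directed DNA methylation, 17 were matched to the annotation, 2 lay in the windows (DCL3 and CLSY1) and none was on a lost region. Set B control peaks touched 2 of 222 lost regions (0.901%) and 19 of 904 kept regions (2.10%). NRPD1 alone of the 17 carried NRPD1-HA peaks, in both lists of both genotypes. Per the methods, the transgene in these plants was built from the whole genomic NRPD1 gene with its promoter. Reads from the transgene and from the native gene cannot be told apart there.

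The strongest lost region was chr4:3318172-3327423, 9252 bases wide and the source of the first sequence above. It had a fold enrichment of 10.04 in WT replicate 1 and 7.16 in replicate 2 (−log10 q-values of 171 and 169), and ZMP-HA peaks of 3.32 and 3.06. The nearest zmp-2 peaks were 35713 bases away in replicate 1 and 16411 bases away in replicate 2, so none was near its borders. It covered the whole coding gene AT4G06526, annotated as a nucleic acid and zinc ion binding protein, all 4080 bases of the pseudogene AT4G06527 and the first 345 bases of the pseudogene AT4G06528. The second, chr3:13159258-13173896, had 6.15 and 5.69 in the WT replicates and ZMP-HA peaks of 2.40 and 2.13. It spanned 14639 bases with 8 genes, among them the coding genes AT3G32180, AT3G32190 and AT3G32200 and the pseudogene AT3G32195, and its nearest zmp-2 peaks were 17673 and 25716 bases away. The third, chr5:11644111-11648422, shared 3985 of its 4312 bases with the pseudogene AT5G31087 and had 5.11 and 4.12. The fourth, chr3:12948175-12953172, held the whole coding gene AT3G31950, another nucleic acid and zinc ion binding protein, with 5.04 and 3.81 in the WT replicates and ZMP-HA peaks of 4.16 and 2.23.

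The other 4 of the top 8 with ZMP-HA peaks had WT fold enrichments between 3.96 and 5.40. They were chr3:14329916-14333782 on the pseudogene AT3G42174, chr5:10623025-10631800 on AT5G28624 and AT5G28625, chr1:15553922-15563322 on AT1G41795 and AT1G41797, and chr3:14006591-14014871 on AT3G33178 and AT3G33181, all annotated as pseudogenes. The first of these had a zmp-2 replicate 2 peak 145 bases from its border and carried an H3K4me3 peak. The widest lost region of all, chr3:14498784-14514070, measured 15287 bases, held 4 WT replicate 1 peaks that a single replicate 2 peak bridged, and covered 4 pseudogenes (AT3G42356, AT3G42360, AT3G42383 and AT3G42386). Its fold enrichment was 3.695 and 4.50, and no zmp-2 peak lay within 33883 bases.

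Of the 5 highest-ranked lost regions without a ZMP-HA peak, 4 lay between genes in AT-rich sequence. The strongest, chr5:13515655-13516971, had 4.96 and 5.05 in the WT replicates, was 1317 bases wide with 29.6% G+C, and lay between genes, 1345 bases from AT5G35300. The next were chr5:13059408-13060653 (4.19 and 3.57, 32.1% G+C) and chr5:10385005-10386139 (3.96 and 5.43, 27.7% G+C), also between genes, and the fifth was chr3:13227698-13228837 (3.11 and 4.45, 28.0% G+C). The nearest zmp-2 peak to these 4 lay 484 to 1800 bases away. The fourth, chr1:14845190-14848686 (3.57 and 3.50), differed from them with 44.0% G+C, lay on the pseudogene AT1G39830, and none of its 150-base stretches occurred only once in the genome.

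That region belonged to a set of 6 lost regions on chromosome 1 that share sequence in pairs. Every 150-base stretch of chr1:14370071-14372111 recurred in chr1:14415618-14417806, every stretch of chr1:14874277-14877478 recurred in chr1:14845190-14848686, and 92.7% and 91.2% of the stretches recurred in the other direction. The third pair was less alike, since 74.2% of the stretches of chr1:14879497-14880268 recurred in chr1:14841963-14843142 and 44.8% in the other direction. Their WT fold enrichments ran from 1.69 to 3.57 in replicate 1 and from 1.52 to 3.50 in replicate 2. Reads from stretches that recur cannot be placed at 1 of their copies. These 6 are among the 40 lost regions without ZMP-HA peaks, and 2 other lost regions, both with ZMP-HA peaks, also had under 50% of stretches that occur once. Apart from these 8, the lost regions were largely unique in sequence. In 186 of 222 every 150-base stretch occurred once, against 665 of 904 kept regions, which were wider and so held more stretches. The mean share of stretches that occur once was close, 95.8% in lost and 96.2% in kept regions. Under 50% of stretches occurred once in 8 of 222 lost regions (3.60%) and 18 of 904 kept regions (1.99%).

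Within the lost regions, ZMP-HA peaks went together with pseudogenes. Of the lost regions with ZMP-HA peaks in both lists, 117 of 141 overlapped a pseudogene or transposon gene (83.0%, 75.7 to 88.8%), against 20 of the 40 without ZMP-HA peaks (50%, 33.8 to 66.2%). In the exact test this gave an odds ratio of 4.82 (2.12 to 11.1, adjusted p = 0.000101), and without the regions of repeated sequence one of 6.74 (adjusted p = 6.1e-06). Lost regions with ZMP-HA peaks were wider, with a median of 1391 bases against 1042.5 bases. In short windows around the WT replicate 1 summit, for peaks and genes alike, the exact test gave an odds ratio of 3.42 (adjusted p = 0.00167). Both of these alternatives were added once the values were known. Kept regions differed in the same direction, with 400 of 575 (69.6%) and 33 of 191 (17.3%). H3K4me3 peaks within 1 kb stood at 18 of the 141 lost regions with ZMP-HA peaks (12.8%, 7.74 to 19.4%) and at 8 of the 40 without (20.0%, 9.05 to 35.6%), and the exact test gave an odds ratio of 0.587 (0.218 to 1.71, adjusted p = 0.367). For H3K4me3 peaks on the region itself, the counts of 7 of 141 and 6 of 40 gave an odds ratio of 0.299 (0.08 to 1.15, exact test, adjusted p = 0.0491), an interval that includes 1. Kept regions went the other way for H3K4me3. Within 1 kb the peaks stood at 222 of 575 kept regions with ZMP-HA peaks (38.6%) and 46 of 191 without (24.1%). On the region itself the shares were 22.6% and 6.81%. Kept regions with ZMP-HA peaks were wider, at a median of 2626 against 976 bases, and this contrast was not tested.

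Base composition differed between the same groups. The median G+C content was 43.2% in lost regions and 37.7% in kept regions, 44.5% in lost regions with ZMP-HA peaks and 37.7% in lost regions without, and 40.3% in kept regions with ZMP-HA peaks and 32.0% in kept regions without. Whole windows had 36.5 to 37.7% G+C. Kept regions without ZMP-HA peaks thus had the lowest median of the 4 groups and lost regions with them the highest. Cytosines in CG context made up 3.31 per 100 bases of lost regions and 2.68 per 100 bases of kept regions, and those in CHG context 3.16 and 2.47. The difference in median G+C had the same direction in each of 3 classes of WT replicate 1 fold enrichment. Among the weakest sites the medians were 43.4% in 152 lost and 38.6% in 151 kept regions. They were 43.2% (n = 55) and 39.1% (n = 323) in the middle class. Among the strongest sites they were 42.5% and 35.5%, with only 15 lost regions against 430 kept. Of these strongest sites, those without ZMP-HA peaks had close medians, 32.1% in 3 lost and 31.6% in 74 kept regions.

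**Figure D5:**
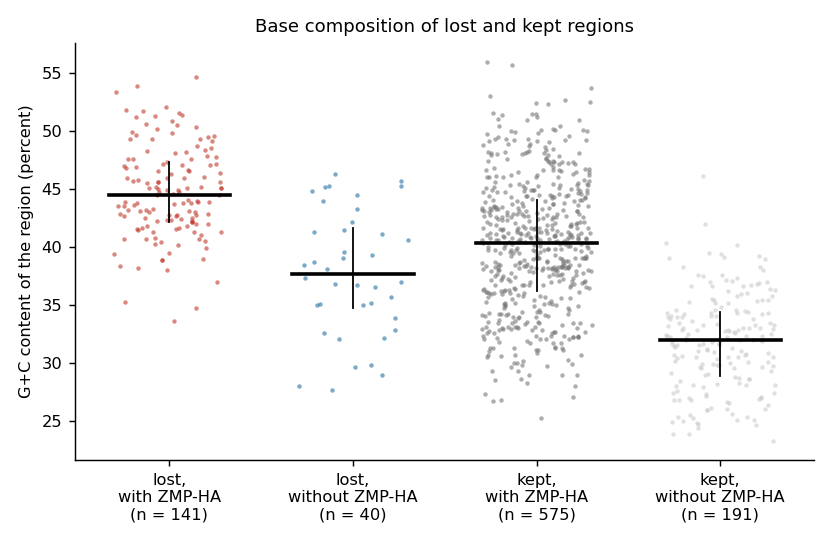
G+C content (percent) of each lost and kept region, split by ZMP-HA peaks, 1 point each. Horizontal bars are medians and vertical bars span the quartiles. The medians are 44.5% for lost regions with ZMP-HA peaks, 37.7% for lost regions without, 40.3% for kept regions with and 32.0% for kept regions without.

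The peak lists differed in base composition as a whole. The median G+C content of all peaks in the windows was 40.6% and 37.7% in zmp-2 NRPD1-HA replicates 1 and 2, and 42.04% and 39.7% in WT NRPD1-HA replicates 1 and 2. In each genotype replicate 2 was the lower, by more than the genotypes differed. It was 43.5% and 44.3% in the ZMP-HA lists and 37.6% and 40.2% in the set A controls. The part of library base composition in the loss of peaks was not tested.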

How the data were processed

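Chromatin of 2 biological replicates per group (1 for H3K4me3) was immunoprecipitated, and the 11 peak lists used here were each called by the authors on a single library against its input. Per the labels and methods, reads were trimmed with Trim Galore 0.4.3, aligned to TAIR10 with Bowtie2 2.2.9 and passed to MACS2 2.2.6. The deposited lists give the fold enrichment at each summit, its p-value and q-value as −log10, and a score, which the authors' caller derives from the q-value and which was not used further. The largest q-value in any list was 0.0494. Depth is known only through the background implied by fold enrichment and p-value.

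Members and gene lists were chosen with earlier results of these data known. Shares carry exact binomial intervals of 95%, and 6 two-sided Fisher's exact tests were adjusted together by Benjamini-Hochberg. Values within classes came from Mantel-Haenszel odds ratios. Named regions were the 8 with and 5 without ZMP-HA peaks with the best worse rank by fold enrichment in the WT lists, the 3 widest, those at each limit, and the genes on them. Genes and sequence came from RefSeq TAIR10.1, whose 5 chromosomes have the lengths of TAIR10, and which has no separate transposon annotation, so transposons were seen only as pseudogenes or by gene description. Overlap code was tested on simulated peaks. Software was numpy 2.4.6, pandas 2.3.3, scipy 1.17.1, statsmodels 0.14.6, networkx 3.6.1, BLAST 2.17.0 and matplotlib 3.10.9. Alternatives covered thresholds, overlap, controls, windows, list length, width, strength and each replicate left out. The number of columns from other series was 0.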

Additional observations from a re-analysis of the deposited data

How the results depend on the processing

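The lower H3K4me3 share and the higher pseudogene or transposon gene share of lost regions, and the higher pseudogene or transposon gene share with ZMP-HA peaks, kept direction and call in all 19, 17 and 19 alternatives. With each replicate left out in turn, their odds ratios ran from 0.271 to 0.39, from 1.56 to 2.26 and from 3.54 to 6.42. Over the same omissions the number of lost regions ran from 225 to 572, their share with ZMP-HA peaks from 43.7 to 80.2%, the odds ratio for ZMP-HA peaks from 0.528 to 1.32, that for protein-coding genes from 0.386 to 0.611, and that for H3K4me3 with against without ZMP-HA peaks from 0.563 to 0.904. Leaving out a list loosens the rule by construction, since it then needs fewer lists. There were 552 lost regions without WT replicate 1 and 572 without WT replicate 2. Without zmp-2 replicate 2 there were 492, but without zmp-2 replicate 1 only 249. Of the 297 partly lost sites, 270 had a peak in zmp-2 replicate 2 and 27 in replicate 1. The lost class thus rested mostly on zmp-2 replicate 2, and why the zmp-2 lists differed was not tested. With reciprocal overlap of 50% the number of lost regions was 134. The ZMP-HA share was 82% for a peak in at least 1 list.

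The odds ratio for ZMP-HA peaks, 0.996 as reported, lay on the other side of 1 at a q-value of 0.01 (1.01), against all 4 control lists (1.03), for a peak in at least 1 list (1.22), clear of set B peaks (1.02), around the summit (1.11), within width classes (1.58) and within strength classes (1.48), and without zmp-2 replicate 1 (1.27) or ZMP-HA replicate 2 (1.32). The protein-coding call was lost in narrowed windows (0.872), around the summit (0.804), and within classes of width (0.636), strength (0.925) and distance (0.68). H3K4me3 with against without ZMP-HA peaks turned with reciprocal overlap (1.084) and lists of equal length (1.32), and passed the threshold on the region itself (0.299). Where no construction is named, the cause was not tested. Values by distance were added after the data had been seen. No paired analysis was possible because the tests compare shares of regions, each region is classed once from both replicates of both genotypes, and a lost region has no zmp-2 peak value to pair with its WT values.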

Other observations

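The reverse pattern, a peak in both zmp-2 NRPD1-HA lists and in neither WT NRPD1-HA list, away from set A control peaks, was seen at 33 pericentromeric regions, 2.92% of those with peaks in both zmp-2 lists. Their median width was 630 bases, their median G+C content 32.4% and their median distance from the window centre 1.54 Mb. ZMP-HA peaks of both lists touched 3 of them (9.09%), a pseudogene or transposon gene 6 (18.2%), and an H3K4me3 peak lay within 1 kb of 9 (27.3%). At the 1013 such zmp-2 regions with peaks in both WT lists the shares were 61.9%, 54.4% and 32.9%. Those regions had a median width of 1660 bases, and wider regions can touch more peaks and genes. These values are a description, with no test.

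One lost region, chr3:15336967-15338179, overlapped the microRNA gene MIR5638a (AT3G06595), with a fold enrichment of 2.11 and 1.76 in the WT replicates. It was picked out after its values had been seen. Long non-coding RNA genes overlapped 5 of 222 lost regions (2.25%) and 54 of 904 kept regions (5.97%), with no test.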
